A study of Rattus norvegicus with 16 samples.

Results

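The renal stroma identity genes are 9 genes that mark the mesenchyme between the epithelial structures of the developing kidney, namely Foxd1, Tbx18, Pdgfra, Pdgfrb, Meis1, Tcf21, Fat4, Smoc2 and Hic1. Their probe sets were taken by symbol, as those annotated with exactly 1 of these 9 symbols. That gave 8 of 21371 gene-level probe sets, 1 for each gene except Fat4, and 104 of 213067 exon-level probe sets covering all 9 genes. The genes were measured in total RNA of whole embryonic kidneys of male rats of 2 inbred strains. The Munich Wistar Frömter strain (MWF) inherits albuminuria and has few nephrons, and its kidneys were dissected at E15.5. Those of the spontaneously hypertensive strain (SHR) were dissected at E16.0. Each strain had 4 arrays, and the 2 levels are summaries of the same 8 arrays, so one does not replicate the other. The effect of strain and that of embryonic day cannot be told apart. Separate animals or litters are not named in the labels, and p-values therefore measure only the spread between these samples.

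Cells expressing the forkhead factor FOXD1 surround the nephron progenitors and, in the mouse, give rise to interstitial fibroblasts, pericytes, mesangial cells and renin cells. This stroma signals to the nephron progenitors and the ureteric bud, and its loss in the mouse disturbs nephron formation and branching. A separate mesenchyme marked by the T-box factor TBX18 forms the wall of the ureter in the mouse.

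Values are deposited log2 intensities, and differences are MWF minus SHR on that scale with their standard error. A call is a limma p under 0.05 after Benjamini-Hochberg adjustment over all probe sets of the table. Levels of different genes are not compared, since each probe set has its own brightness. At gene level, limma called 0 of the 8 measured genes, while 6.58% of all gene-level probe sets passed (3.18% higher and 3.4% lower in MWF). At an unadjusted p under 0.05, 2 of 8 passed (Smoc2 and Hic1), against 22.4% of all. The same 2 genes were those whose arrays did not overlap between the strains, which held for 14.4% of all gene-level probe sets. Of the 8 differences, 7 lay below 0, with a median of -0.13, beside a median of 0.02 over all gene-level probe sets, of which 43.7% lay below 0. The tissue is a mixture of cells, so a change in the number of stromal cells and one in RNA per stromal cell could not be told apart.

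**Figure D1:**
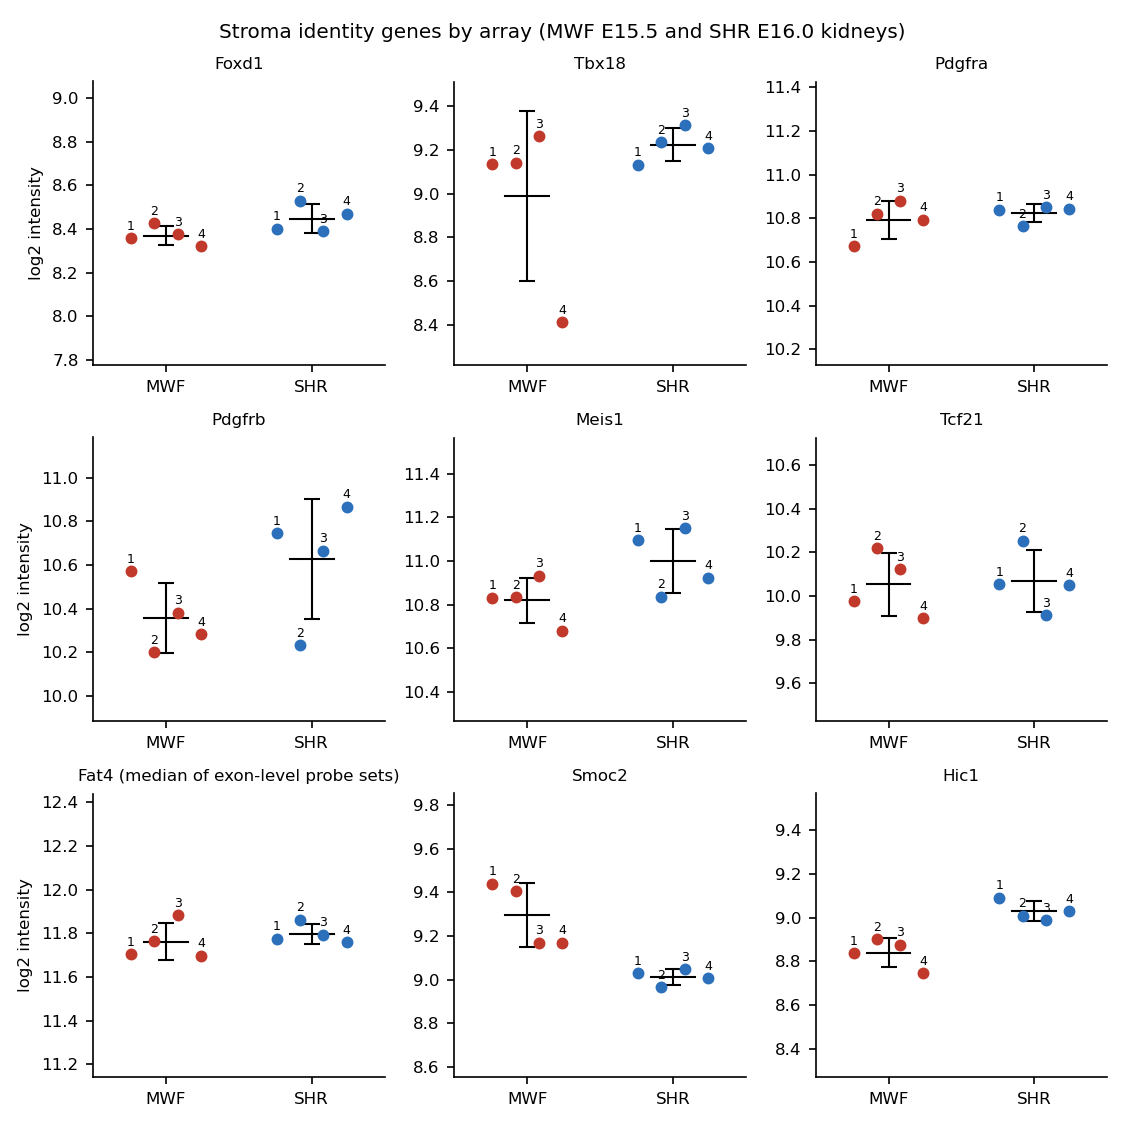
Log2 intensity of each stroma identity gene in the 4 MWF and the 4 SHR arrays (points, numbered by replicate), with the mean (horizontal line) and SD (error bar) of each strain. All panels span the same log2 range; Smoc2 and Hic1 separate the strains, and Tbx18 is low in MWF replicate 4, at 8.41.

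The arrays themselves were alike but not uniform. Across gene-level probe sets, pairs of arrays within a strain had Pearson coefficients of 0.979 to 0.992. On the first principal component the MWF arrays lay between -20.8 and -15.7, SHR replicates 1, 3 and 4 between 25 and 28, and SHR replicate 2 at -1.63. The mean of 9 sympathoadrenal genes, which mark chromaffin cells and their neural crest precursors and include Th and Dbh of catecholamine synthesis, was 6.70 to 7.70 in MWF. It was 6.66 in SHR replicate 2 and 9.54 to 9.88 in the other SHR arrays. The mean of 7 liver genes varied widely within each strain, with 9.69, 9.55, 7.26 and 8.58 in MWF, and 9.66, 8.44, 6.80 and 7.39 in SHR. All 6 measured nephron progenitor genes and 6 of 9 ureteric bud genes had means above the median of the table. Of 8 measured genes of adrenal cortex and gonad, all 8 lay below that median, as did 4 of 9 sympathoadrenal and 3 of 5 podocyte genes. Each probe set has its own brightness and no detection call, so this does not show which cells were present.

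FOXD1 defines the stromal progenitor. Its gene had 8.36, 8.43, 8.38 and 8.32 in the MWF arrays, and 8.40, 8.53, 8.39 and 8.47 in the SHR arrays. The strains overlapped, and the difference was -0.08 ± 0.06 (SE), with a 95% interval of -0.21 to 0.05 (limma adjusted p = 0.477). Both exon-level probe sets of Foxd1 differed by less than 0.003 (0.0017 and 0.0028). Tcf21, which encodes a basic helix-loop-helix factor (also called Pod1) of kidney mesenchyme and podocytes, had 9.98, 10.22, 10.12 and 9.90 in MWF. In SHR it had 10.05, 10.25, 9.91 and 10.05. The ranges of the strains lay almost on top of each other, with a difference of -0.01 ± 0.09 and an interval of -0.23 to 0.20 (limma adjusted p = 0.953). Neither factor separated the strains, and neither did its exon-level probe sets.

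Promoter sequences are shown for Foxd1, the defining factor, for Tbx18, whose level was low in a single array, and for Hic1, whose arrays did not overlap between the strains. Each is the 250 bases before the gene start in RefSeq's GRCr8 table, read 5′ to 3′ on the gene's strand. Of the 9 genes, 7 had a promoter in that table, and Pdgfrb and Smoc2 are named only. Capitals mark E-boxes (CANNTG, the class of site that basic helix-loop-helix factors such as TCF21 bind) and GC boxes (GGGCGG), searched on both strands.
Foxd1, chr2:31436552-31436801, plus strand: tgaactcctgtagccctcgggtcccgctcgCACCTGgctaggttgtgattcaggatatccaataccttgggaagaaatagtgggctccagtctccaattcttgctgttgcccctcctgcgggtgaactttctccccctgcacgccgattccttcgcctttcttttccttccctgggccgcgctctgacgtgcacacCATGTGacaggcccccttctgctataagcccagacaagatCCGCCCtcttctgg
Tbx18, chr8:97559966-97560215, minus strand: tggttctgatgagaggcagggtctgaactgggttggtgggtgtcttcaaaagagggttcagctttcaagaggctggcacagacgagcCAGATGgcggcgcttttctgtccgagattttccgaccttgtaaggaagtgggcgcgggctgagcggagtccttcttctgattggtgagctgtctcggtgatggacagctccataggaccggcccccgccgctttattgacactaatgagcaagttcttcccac
Hic1, chr10:60517813-60518062, minus strand: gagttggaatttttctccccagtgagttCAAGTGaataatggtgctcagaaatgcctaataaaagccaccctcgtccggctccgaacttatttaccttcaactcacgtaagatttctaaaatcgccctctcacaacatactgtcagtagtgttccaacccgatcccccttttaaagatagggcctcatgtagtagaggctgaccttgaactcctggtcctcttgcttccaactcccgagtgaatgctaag
The Foxd1 promoter held 2 E-boxes and 1 GC box, and those of Tbx18 and Hic1 held 1 E-box and no GC box. An E-box was found in 65.5% and a GC box in 30.5% of 33469 windows of the same length. The CCAAT box (CCAAT) stood in the Foxd1 window in 2 places and in that of Tbx18 in 1 (34% of all windows), and the TATA box (TATAAA) in none of the 7 (12.9% of all). No matches overlapped one another. The GC content was 57.2%, 55.6% and 46.0% for Foxd1, Tbx18 and Hic1, beside a median of 51.2% over all windows. The arrays do not measure binding or promoter activity, and the matches only describe the letters of these windows.

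Tbx18 was the member with the widest spread inside a strain. It had 9.13, 9.14, 9.26 and 8.41 in MWF, and 9.13, 9.24, 9.31 and 9.21 in SHR. MWF replicate 4 lay 0.72 below the next lowest array, while the other 7 arrays lay within 0.2 of each other. The strain difference was -0.23 ± 0.17 (limma adjusted p = 0.454), and -0.04 without MWF replicate 4. All 8 exon-level probe sets of Tbx18 had their lowest value of the 8 arrays in MWF replicate 4. Against the mean of the other 7 arrays, that array differed by -0.94 to -0.38, with a median of -0.85. The strain differences of these probe sets lay between -0.51 and 0.13, and none was called. Among named gene-level probe sets this was the second-largest gap below the other arrays in MWF replicate 4, and a gap of at least 0.5 was reached by 9 of 21371 probe sets (0.0421%) in that array.

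Other genes of ureteric mesenchyme and of the hedgehog response were measured through 5 of the 11 genes listed, and none was called. The smooth muscle coactivator gene Myocd had 8.77, 9.13, 9.19 and 8.89 in MWF, and 8.76, 8.75, 8.37 and 8.44 in SHR (0.42 ± 0.12, limma adjusted p = 0.0831). The hedgehog target gene Gli1 differed by 0.28 ± 0.10 and the zinc finger factor gene Tshz3 by -0.12 ± 0.08, with adjusted p of 0.131 and 0.434 in limma. The list had a median difference of 0.04. Its mean in MWF replicate 4, at 9.04, was the lowest of the MWF arrays, which otherwise lay between 9.16 and 9.37, and SHR arrays lay between 9.02 and 9.24.

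**Figure D2:**
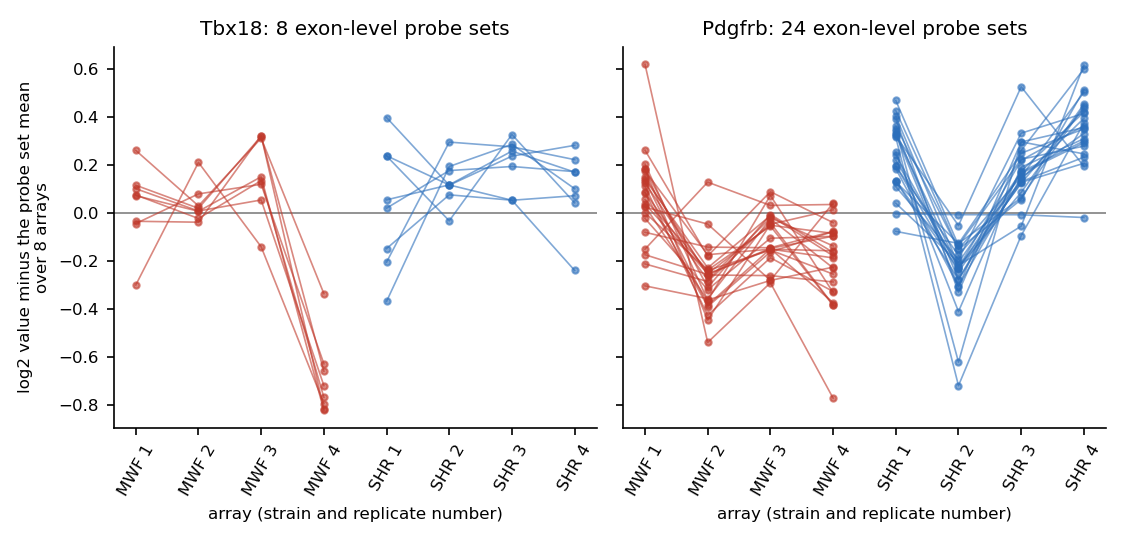
Exon-level probe sets of Tbx18 (8) and Pdgfrb (24) in each array, as the log2 value minus the probe set's own mean over the 8 arrays; each line joins the values of 1 probe set within a strain and carries no order. Every Tbx18 probe set is lowest in MWF replicate 4, and 23 of 24 Pdgfrb probe sets are lowest among SHR arrays in SHR replicate 2.

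Hic1 encodes a zinc finger repressor that marks quiescent mesenchymal progenitors in the mouse. It had 8.84, 8.90, 8.88 and 8.75 in MWF, and 9.09, 9.01, 8.99 and 9.03 in SHR. All MWF arrays lay below all SHR arrays, with a difference of -0.19 ± 0.06 and a 95% interval of -0.32 to -0.06. This did not pass over all genes (limma adjusted p = 0.0895). Of its 3 exon-level probe sets, 2 lay at -0.22 and -0.15. The first of these had no overlap between the strains, where 4.59% of all exon-level probe sets separated downward. The third, at 0.02, was dim, with a mean of 5.65.

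Meis1 encodes a homeobox factor of the interstitium that binds DNA together with PBX proteins. It had 10.83, 10.83, 10.93 and 10.68 in MWF, and 11.10, 10.84, 11.15 and 10.92 in SHR. MWF replicate 4 was the lowest array, and SHR replicate 2 lay among the MWF arrays. The difference was -0.18 ± 0.09 (limma adjusted p = 0.259), and -0.07 with the mean of 4 sympathoadrenal genes (Th, Dbh, Chga and Chgb) as a covariate. At exon level 12 of its 13 probe sets lay below 0, between -0.39 and -0.04, and the exception was at 0.05. No overlap between the strains was seen in 2 of the 12, where 4.59% of all exon-level probe sets separated downward. MWF replicate 4 was the lowest of the 8 arrays in 10 of the 13 probe sets. None of 7 measured MEIS and PBX partner genes was called. The nearest were the homeobox repressor gene Tgif1 (0.17 ± 0.06), Pbx4 (0.23 ± 0.08) and Pbx2 (-0.13 ± 0.06), at limma adjusted p of 0.107, 0.134 and 0.266. The list had a median of 0.10, with 5 genes above 0 and 2 below.

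The receptor tyrosine kinases PDGFRA and PDGFRB bind platelet-derived growth factors, and mark interstitial fibroblasts and mural cells. Pdgfra had 10.67, 10.82, 10.88 and 10.79 in MWF, and 10.84, 10.76, 10.85 and 10.84 in SHR. The strains overlapped, with a difference of -0.03 ± 0.06 and an interval of -0.17 to 0.11 (limma adjusted p = 0.802). At exon level 16 of its 24 probe sets lay below 0 and 8 above, between -0.26 and 0.40. The strains did not overlap in 3 of the lower ones, where 4.59% of all exon-level probe sets separated downward. The probe set furthest above 0 varied within each strain, with 11.11, 10.32, 11.24 and 11.11 in MWF, and 10.02, 10.88, 11.01 and 10.30 in SHR.

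Pdgfrb had 10.57, 10.20, 10.38 and 10.28 in MWF, and 10.74, 10.23, 10.67 and 10.87 in SHR. SHR replicate 2 lay among the MWF arrays, and MWF replicate 1 was the highest of its strain. The difference was -0.27 ± 0.14 (limma adjusted p = 0.291). At exon level 22 of its 24 probe sets lay below 0, down to -0.49, with a median of -0.27, but none was called and none separated the strains. SHR replicate 2 was the lowest SHR array in 23 of 24 probe sets, and MWF replicate 1 the highest MWF array in 17 of 24. Without SHR replicate 2, Pdgfrb was the 1 member that passed at gene level, with a difference of -0.40 (limma adjusted p = 0.0356), where 6.62% of all gene-level probe sets passed as lower and 4.05% as higher. One of its exon-level probe sets then passed too, at -0.65 (adjusted p = 0.0388), where 2.91% of all did. Without both SHR replicate 2 and MWF replicate 1 the gene-level difference was -0.47 (adjusted p = 0.0117) and 3 of its probe sets passed. In that fit 10.2% of all gene-level and 2.5% of all exon-level probe sets passed. Leaving out the lowest SHR array, or the highest MWF array too, enlarges the Pdgfrb difference in any case, so these fits do not test it. The same arrays stood apart in the sympathoadrenal genes, whose list means were 7.70, 6.70, 6.73 and 6.76 in MWF, and 9.54, 6.66, 9.72 and 9.88 in SHR. With the 4 sympathoadrenal genes as a covariate the Pdgfrb difference was 0.07 (limma adjusted p = 0.746). These 4 genes differed between most arrays of the strains, so the covariate also takes up part of any strain difference. With that covariate no member was called, at gene level (2.42% of all were) or at exon level (0.649% of all).

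Of 12 PDGF ligand and receptor partner genes, 6 lay above 0 and 6 below, and none was called. The ligand gene Pdgfd had 7.31, 7.27, 7.19 and 7.37 in MWF, and 8.06, 7.29, 8.39 and 8.58 in SHR (-0.80 ± 0.24, limma adjusted p = 0.0808). SHR replicate 2 again lay among the MWF arrays, and without it Pdgfd was lower by -1.06 (adjusted p = 0.000832). It was the lowest SHR array, so leaving it out enlarges the difference in any case. Pdgfb, a ligand gene of endothelium, did not overlap between the strains, with 7.03, 7.24, 7.36 and 7.28 in MWF, and 7.41, 7.61, 7.40 and 7.45 in SHR (-0.24 ± 0.08, limma adjusted p = 0.131). The signalling subunit gene Pik3r1 lay at 0.18 ± 0.06 (adjusted p = 0.116).

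FAT4 is a giant cadherin of the stroma that, in the mouse, acts on nephron progenitors with its partner DCHS1. Fat4 was measured only at exon level, through 16 probe sets. Their median per array was 11.70, 11.76, 11.88 and 11.70 in MWF, and 11.77, 11.86, 11.79 and 11.76 in SHR. The strains overlapped, with a difference of -0.04 ± 0.07 and an interval of -0.19 to 0.12 (limma adjusted p = 0.848 over 16582 genes summarised the same way, of which 4.96% passed). Of the 16 probe sets 7 lay above 0 and 9 below, between -0.15 and 0.17, and none reached an unadjusted p under 0.05. Fat4 thus had the narrowest range of differences among the members with more than 3 probe sets.

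In the list of FAT4 partners and Hippo pathway genes, 1 of 21 measured genes was higher and 1 was lower, with a median of -0.02. The cadherin gene Fat3, a relative of Fat4, was higher in MWF, with 8.55, 8.57, 8.64 and 8.70 against 8.46, 8.31, 8.29 and 8.13 in SHR (0.32 ± 0.08, limma adjusted p = 0.0445). It did not pass without SHR replicate 2 (0.32, adjusted p = 0.0537). Ccn2, a target gene of YAP, was lower in MWF, with 8.20, 8.13, 8.01 and 8.14 against 8.33, 8.41, 8.52 and 8.41 in SHR (-0.30 ± 0.07, limma adjusted p = 0.0306). Dchs1 lay at -0.04 and Yap1 at 0.06 without passing (adjusted p = 0.814 and 0.638).

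Smoc2 encodes a secreted calcium-binding matrix protein of the SPARC family, and it was the only member above 0 at gene level. It had 9.44, 9.41, 9.17 and 9.17 in MWF, and 9.03, 8.96, 9.05 and 9.01 in SHR. All MWF arrays lay above all SHR arrays, by 0.28 ± 0.08 or 1.22-fold, with an interval of 0.11 to 0.46. Over all genes this missed the threshold (limma adjusted p = 0.0646). It passed with eBayes set to trend and robust (adjusted p = 0.0466), with array weights (0.0410) and with dim probe sets, those under the table's median level, removed (0.0412). It did not pass under any other setting tried, with adjusted p of 0.0642 to 0.158 when single arrays were left out. The median level of its exon-level probe sets on each array differed by 0.09 between the strains (limma adjusted p = 0.554). The median of the differences of its 12 single probe sets was 0.29.

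At exon level 10 of its 12 probe sets lay above 0 and 2 below. The 2 that were called, both higher in MWF, were the only calls among the 104 exon-level probe sets of the 9 genes. Of all exon-level probe sets 1.93% were called, 0.892% as higher. One had 8.81, 8.64, 8.82 and 8.67 in MWF, and 8.18, 8.07, 7.85 and 7.58 in SHR, a difference of 0.81 ± 0.14 or 1.76-fold (limma adjusted p = 0.0212). The other had 10.47, 10.37, 10.17 and 10.32 in MWF, and 9.53, 9.80, 9.75 and 9.69 in SHR, a difference of 0.64 ± 0.10 or 1.56-fold (adjusted p = 0.0154). The strains were apart in both, and in 5 further probe sets at 0.27 to 0.42, where 4.24% of all exon-level probe sets separated upward. The 2 probe sets with the lowest numbers lay the other way, at -0.27 and -0.12, with overlap between the strains. Neither of the 2 called probe sets passed without MWF replicate 2, with a block for the replicate number or with the sympathoadrenal covariate. Leaving out MWF replicate 1, 3 or 4, or SHR replicate 3 or 4, left 1 of the 2 called.

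**Figure D3:**
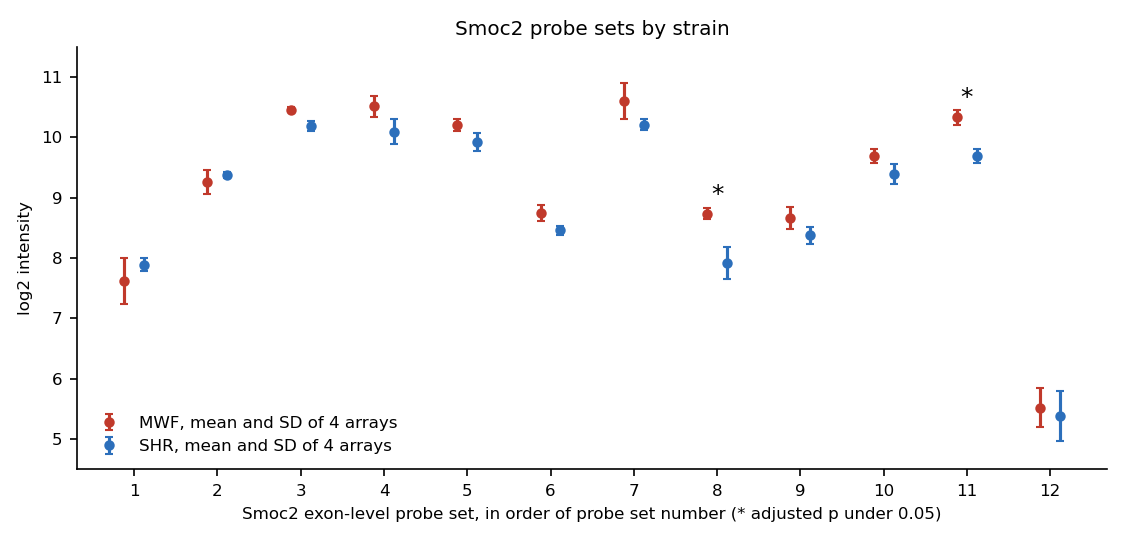
The 12 exon-level probe sets of Smoc2 in order of probe set number, with the mean and SD of the 4 MWF (left point of each pair) and the 4 SHR arrays on the log2 scale. In 10 of the pairs the mean is higher in MWF, and the stars mark the 2 called probe sets, at 0.81 and 0.64.

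Whether the probe sets of a gene differed by unlike amounts was tested for the 7 members with at least 3 probe sets. Each probe set was set against the mean of its gene on the same array, and limma called 0 of 7, where 8.24% of 13864 genes passed. Smoc2 came nearest (Simes adjusted p = 0.131), followed by Tbx18 (adjusted p = 0.255), both of which had an unadjusted Simes p under 0.05. Smoc2 passed when dim probe sets were left out (adjusted p = 0.0114). Over all 9 genes, 72 of 104 exon-level probe sets lay below 0 (47.5% of all exon-level probe sets did), with 7 separated upward and 6 downward. Separation was upward in 4.24% and downward in 4.59% of all exon-level probe sets. All 7 upward ones were of Smoc2, while the 6 downward ones were of Pdgfra, Meis1 and Hic1. At an unadjusted p under 0.05, 19 of 104 passed in limma, 9 of them of Smoc2, beside 13.7% of all exon-level probe sets.

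**Figure D4:**
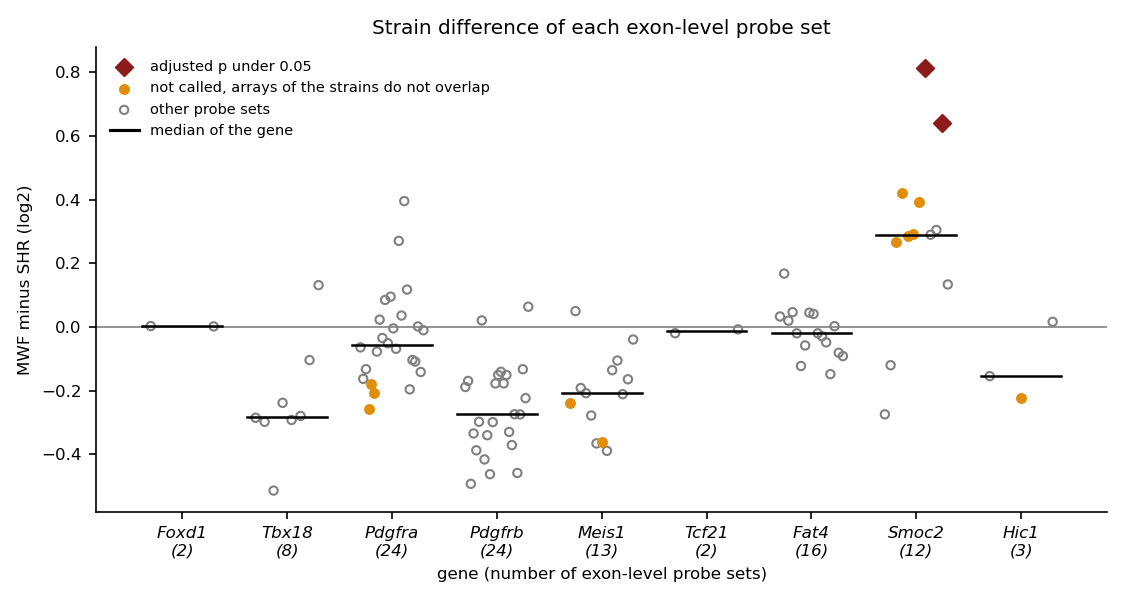
Difference MWF minus SHR (log2) of each of the 104 exon-level probe sets by gene, with the median of the gene as a line. Diamonds mark the 2 called probe sets, both of Smoc2, filled circles those whose arrays do not overlap without being called, and open circles the rest.

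Other stromal gene lists held a few called genes each, and their counts stand beside the 3.18% of all gene-level probe sets called higher and 3.4% called lower. Counts without SHR replicate 2 stand beside 4.05% higher and 6.62% lower in that fit. For genes with SHR replicate 2 on the MWF side of the other SHR arrays, leaving it out enlarges the difference in any case. A single call in a list of 13 or 15 genes is near the share over all probe sets. In the cortical and nephrogenic stroma list 1 of 13 measured genes was lower, the Wnt inhibitor gene Sfrp1, with 11.58, 11.62, 11.78 and 11.40 in MWF, against 12.02, 11.87, 11.98 and 12.03 in SHR (-0.38 ± 0.08, limma adjusted p = 0.0305). The list had 10 genes below 0 and a median of -0.15. Its mean in SHR replicate 2, at 10.34, lay among those of the MWF arrays (10.30 to 10.43), while SHR replicates 1, 3 and 4 had 10.60 to 10.67. With SHR replicate 2 left out, 5 of its genes were lower. The retinoic acid enzyme gene Aldh1a2 of the same list lay at 0.16 without passing (adjusted p = 0.229).

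In the medullary and papillary stroma list 2 of 12 genes were higher and none was lower, with a median of -0.01. Axin2, a target and inhibitor gene of Wnt signalling, had 9.01, 9.02, 9.09 and 9.0 in MWF, and 8.77, 8.75, 8.73 and 8.67 in SHR (0.30 ± 0.05, limma adjusted p = 0.0133). Lef1, a transcription factor gene of the same pathway, had 8.81, 8.81, 8.93 and 8.91 in MWF, and 8.57, 8.69, 8.54 and 8.42 in SHR (0.31 ± 0.07, limma adjusted p = 0.0344). Both separated the strains in all 8 arrays. With SHR replicate 2 left out, 2 genes of this list were higher and 2 lower.

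Among mural, mesangial and renin cell genes 1 of 13 was lower, and the list had a median of -0.14. Angpt1, the angiopoietin ligand gene of pericytes, had 8.16, 8.26, 8.14 and 8.07 in MWF, and 9.32, 9.20, 9.08 and 9.10 in SHR (-1.02 ± 0.07, limma adjusted p = 6.83e-05). SHR replicate 2 stayed with the other SHR arrays here. The pericyte channel genes Kcnj8 (-0.55) and Abcc9 (-0.47) did not pass (adjusted p = 0.238 and 0.403). When SHR replicate 2 was left out, 4 genes of the list were lower, Kcnj8 (-0.81) and Abcc9 (-0.80) among them (limma adjusted p = 0.0145 and 0.0184).

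In the fibroblast matrix list 17 of 18 genes lay below 0, with a median of -0.25, and 2 were lower and 1 higher. The proteoglycan gene Lum had 10.23, 9.51, 9.36 and 9.16 in MWF, and 11.11, 9.99, 11.20 and 11.23 in SHR (-1.32 ± 0.31, limma adjusted p = 0.0372). The mesenchymal factor gene Twist1 had 9.31, 9.45, 9.17 and 9.41 in MWF, and 9.76, 9.55, 9.74 and 9.89 in SHR (-0.40 ± 0.09, adjusted p = 0.0316). Thy1, a surface antigen gene of fibroblasts and neurons, went the other way, with 8.80, 8.94, 8.94 and 8.83 in MWF, and 8.11, 8.07, 8.24 and 8.15 in SHR (0.73 ± 0.06, adjusted p = 0.000252). The fit without SHR replicate 2 had 11 genes lower and 1 higher. The list mean in SHR replicate 2 (10.07) lay among those of MWF (10.05 to 10.22), below the other SHR arrays (10.47 to 10.56).

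Of 15 measured paralogs of the 9 genes, 1 was lower, with a median of -0.06. It was Sparcl1, of the SPARC family like Smoc2, which had 9.36, 9.16, 8.99 and 9.12 in MWF, and 9.95, 9.58, 10.15 and 10.28 in SHR (-0.83 ± 0.15, limma adjusted p = 0.0112). Smoc2 and Sparcl1 thus lay on opposite sides of 0. Of the paralogs, 5 were lower without SHR replicate 2.

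**Figure D5:**
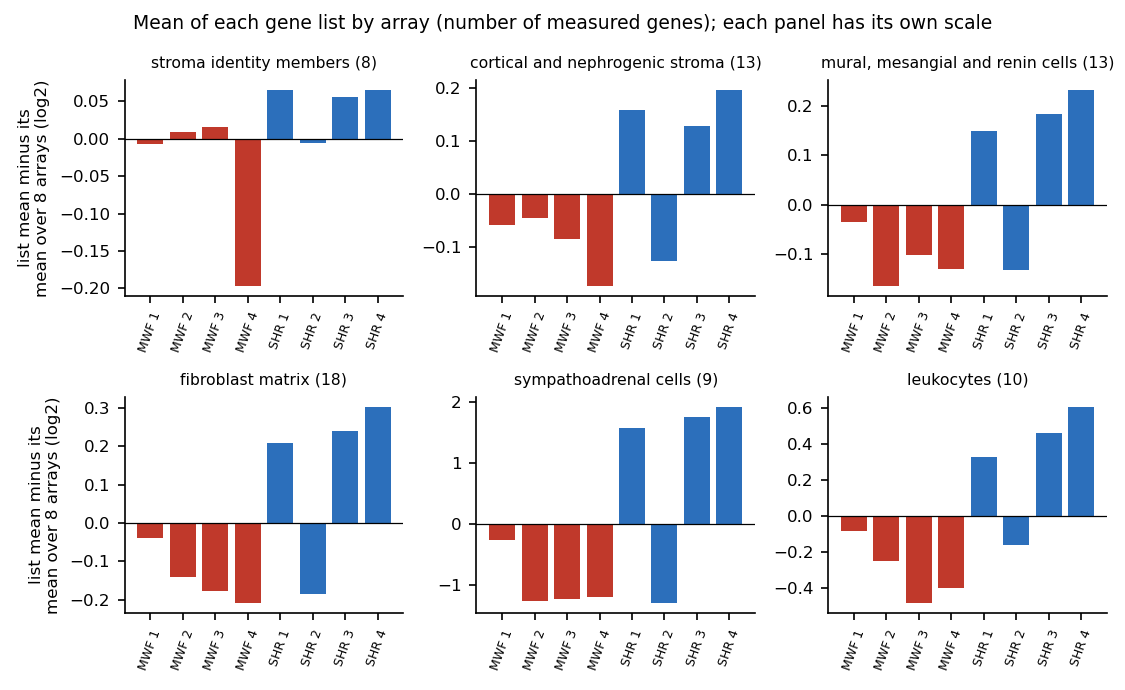
Mean log2 value of 6 gene lists in each array, minus the mean of that list over the 8 arrays (bars, MWF left and SHR right; the number of measured genes is in each title and each panel has its own scale). SHR replicate 2 lies with the MWF arrays in all 6 lists, and the stroma identity mean is lowest in MWF replicate 4, at 9.54.

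Markers of other cell types were counted in the same fit. Leukocyte genes had 3 of 10 lower (Adgre1 at -0.94, Coro1a at -0.51 and Lcp1 at -0.66) and a median of -0.68. Red cell genes had 6 of 9 higher, the closely related globin genes Hba-a3 (2.48), Hbb-b1 (1.63), Hbg1 (1.18) and Hbe2 (0.52), the blood group gene Rhd (1.68) and the erythropoietin receptor gene Epor (0.31), and a median of 1.14. None was called among sympathoadrenal (9 measured, median -2.17), adrenal cortex and gonad (8, median 0.18), nephron progenitor (6, median 0.16), ureteric bud (9, median 0.17), podocyte (5, median 0.09), endothelial (8, median -0.14) and liver genes (7, median 0.80). Without SHR replicate 2, 8 sympathoadrenal, 9 leukocyte, 3 endothelial and 1 adrenal or gonad gene were lower, and 8 red cell, 4 ureteric bud and 1 nephron progenitor gene were higher. The part of these other cells in the differences of the stroma identity genes was not tested. The covariate values above do not test it, since the 4 covariate genes themselves lay at -2.17 (Chga) to -3.48 (Chgb) between the strains.

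The genes most like each member over the 8 arrays were taken from 7411 named gene-level probe sets brighter than the table's median. They are a description, since arrays of both strains enter and only the best matches are shown. Pdgfrb was most like Dbh, which encodes the enzyme of noradrenaline synthesis, the pericyte channel gene Kcnj8 and the collagen gene Col12a1, all at a Pearson coefficient of 0.97 over 8 arrays. Meis1 was most like Adcy2, Senp8 and Gria3 (0.96, 0.94 and 0.94), Pdgfra like Gtpbp2, Il6st and Btrc (0.95, 0.93 and 0.93), and Tcf21 like Twnk, Alg3 and Alg10 (0.97, 0.96 and 0.95). Hic1 was most like Plp2, Znrf2 and Calr (0.99, 0.98 and 0.98), Smoc2 like Rpl22l1, Suv39h1 and Vrk2 (0.96, 0.96 and 0.95), and Foxd1 like Msto1, Rad21 and Scn2b (0.98, 0.97 and 0.96). For Tbx18 the nearest were Trim39, Cd320 and Nipal2 (0.94, 0.93 and 0.93), but by rank the likeness of Trim39 was 0.40, and each had its lowest value in MWF replicate 4. No other stroma identity gene was among the 3 nearest of any member.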

How the data were processed

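Total RNA of male whole embryonic kidneys was measured on rat gene arrays, 4 of MWF (E15.5) and 4 of SHR (E16.0), with groups and replicate numbers from the sample titles. The authors deposited log2 intensities, and array medians were close (8.17 to 8.21 at gene level, 7.93 to 7.99 at exon level), as after scaling between arrays. Partek is named in the submitters' processing notes; for its version and settings and for the array build, the sources used here say nothing. Precision is limited by the number of arrays.

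Symbols came from the platform annotation, updated through RefSeq's GRCr8 gene table, with 12936 gene-level and 172924 exon-level probe sets having 1 symbol. In R 4.3.3, limma 3.58.1 (lmFit and eBayes, with strain as the only term) was run on each whole table, and p-values were adjusted over the table by Benjamini-Hochberg. A gene with several gene-level probe sets was taken by the brightest. For exon usage, each probe set minus its gene's mean per array was fitted with its own variance, followed by a Simes p per gene. The members, 19 gene lists, tests and alternatives were chosen with earlier results of these data known. In each list the called genes are named, otherwise up to 3 with the smallest p (for stromal lists), with the 3 genes most like each member, and genes named beyond that (Dchs1, Yap1, Aldh1a2, Kcnj8, Abcc9) were chosen after their values were seen. The scripts were tested on simulated data. Alternatives covered the scale, the removal of dim probe sets, trended and robust variances, weighted arrays, a block for the replicate number, a sympathoadrenal covariate, arrays left out and other gene summaries. No 2 arrays held identical values.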

Additional observations from a re-analysis of the deposited data

Results flagged for a closer look

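Among 94 groups of 4 arrays examined (members, list means and called list genes), 8 held an array whose gap to the nearest other array exceeded Dixon's 95% critical value for the gap's share of the group's range. Chance flags about 1 in 20 such groups. Tbx18 in MWF replicate 4 was 8.41, with the other MWF arrays between 9.13 and 9.26. Pdgfra in SHR replicate 2 was 10.76, against 10.84 to 10.85 in the other SHR arrays, a gap under 0.1. The mean of the 8 stroma identity genes was 9.54 in MWF replicate 4 (other MWF arrays 9.73 to 9.75) and 9.73 in SHR replicate 2 (other SHR arrays 9.79 to 9.80). The mean of the PDGF ligand and partner genes was 9.61 in MWF replicate 1, against 9.70 to 9.71 in the other MWF arrays. The sympathoadrenal mean was 7.70 in MWF replicate 1 (other MWF arrays 6.70 to 6.76) and 6.66 in SHR replicate 2 (other SHR arrays 9.54 to 9.88). Lum was 9.99 in SHR replicate 2 and 11.11 to 11.23 in the other SHR arrays.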

How the results depend on the processing

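The gene-level count of members called was 0 with the deposited scale, quantile normalization, median centring, the replicate block, the sympathoadrenal covariate, exon-level medians and the mean of all probe sets of a gene. It was 1 (Smoc2) without dim probe sets, with trend and robust and with array weights, and 1 (Pdgfrb) without both SHR replicate 2 and MWF replicate 1. With single arrays left out it lay between 0 and 1. The count of members' exon-level probe sets, 2, was 0 with the replicate block and with the covariate, 4 without both arrays, and between 0 and 3 with single arrays left out. For exon usage, 1 member (Smoc2) was called without dim probe sets. Over the whole tables, gene-level calls numbered 1407, and 872 without dim probe sets, 2397 with array weights, 517 with the covariate, 2180 without both arrays and 775 to 2279 with single arrays left out. With the replicate block they were 1312. Exon-level calls numbered 4112, and 2172 with the replicate block, 1382 with the covariate and 2405 to 6210 with single arrays left out. Exon usage calls numbered 1143, and 547 with the replicate block, 438 with the covariate, 733 without both arrays and 774 to 1002 with single arrays left out. Same-numbered arrays of the 2 strains had deviations from their strain means that correlated at 0.284, 0.151, 0.0982 and 0.156. MWF arrays numbered 1, 2 and 3 correlated best with the SHR array of their own number, and the array numbered 4 did not. The liver list means fell in the order 1, 2, 4 and 3 in both strains, and the red cell means in the order 2, 1, 4 and 3. The stroma identity means shared no such order, being lowest in MWF replicate 4 and SHR replicate 2. The labels name no pairing, and the main fits have no term for the replicate number. These values do not settle whether the numbers pair the samples. Of 160 recomputed member differences, 9 changed sign: Tcf21 was 0.072 with array weights, 0.074 without both arrays and -0.069 to 0.048 with single arrays left out (above 0 without MWF replicate 1 or 4 or SHR replicate 2), Pdgfra was -0.062 to 0.0075 with single arrays left out (above 0 without MWF replicate 1), Foxd1 was 0.0023 with exon-level medians, Fat4 was 0.0052 without both arrays and -0.076 to -0.014 with single arrays left out, and Pdgfrb was 0.073 with the covariate. The covariate also moved Tcf21 to -0.17, Foxd1 to -0.14 and Fat4 to -0.10. Exon-level medians, the median level of a gene's probe sets on each array, moved Tbx18 to -0.11. The median of the differences of its 8 single probe sets was -0.28. Smoc2 ranged from 0.09 (exon-level medians) to 0.35 (covariate). The causes were not tested. Dim probe sets have no detection call here, so low values may carry no signal.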

Other observations

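MWF replicate 4 was below all 7 other arrays in 13.1% of gene-level probe sets, a share within the range of the single arrays (5.81% to 17.1%). Besides Tbx18, the named genes furthest below the other arrays there were chosen after their values were seen. Mbp, a myelin protein gene, was 4.84 in that array and between 5.68 and 6.64 in the others. The glycine receptor gene Glra2 was 6.18 there, against 6.85 to 7.35 elsewhere, and the choline transporter gene Slc5a7 5.32, against 5.97 to 6.81. Among the stroma identity genes, Meis1, Hic1, Foxd1 and Tcf21 also had their lowest value of the 8 arrays in MWF replicate 4, by gaps of 0.15, 0.09, 0.04 and 0.02.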
